A study of Mus musculus with 2 samples.

Results

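High-mitochondrial barcodes are droplets of the scRNA-seq libraries in which a large part of the captured mRNA came from the mitochondrial genome. They were selected in each library as barcodes with at least 1000 UMIs, at least 300 genes and at least 20% of their UMIs from genes whose symbols begin with mt-. A UMI (unique molecular identifier) marks 1 captured mRNA molecule, and each molecule is counted once however often it was read. Of the 13606 barcodes past the UMI and gene floors, 506 were chosen by this rule. Replicate 1 held 318 of 5822 (5.46%, exact Clopper-Pearson 95% interval 4.89 to 6.08%). Replicate 2 held 188 of 7784 (2.42%, 2.09 to 2.78%). These intervals and all later ones cover counting error only, and with 2 libraries of 1 condition the shares of the libraries were not compared by a test.

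The libraries are biological replicates 1 and 2 of primary aortic vascular smooth muscle cells (VSMCs) of wildtype mice, grown in full medium for 5 days. There was 1 genotype and 1 condition, and no treatment. Cells were lifted with trypsin/EDTA, filtered and counted for viability before encapsulation with the 10x Genomics 3′ chemistry. The study's own quality filter, which removes cells with 20% or more mitochondrial RNA, leaves all of these barcodes out. The files hold no measure of membrane integrity or viability of single droplets, so that the barcodes are named here by the rule and not as damaged cells.

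As background, mitochondria transcribe their own 13 mRNAs inside the organelle, where these are shielded by the mitochondrial membranes. Cytosolic mRNAs, such as those of ribosomal proteins and glycolytic enzymes, can leak from a cell whose plasma membrane is open, while long noncoding RNAs such as *Malat1* and *Neat1* are retained in the nucleus. In smooth muscle, contractile genes (*Myh11*, *Acta2*, *Tagln*) mark the differentiated state and decline during phenotypic modulation in culture.

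The values that chose the barcodes are a description and were not tested. In replicate 1 the mitochondrial share had a median of 58.0% with quartiles of 47.6 and 69.7%. In replicate 2 the median was 64.4% with quartiles of 52.9 and 75.8%. Near the threshold, the 3 barcodes just inside it had 20.2, 21.5 and 23.3% in replicate 1 and 20.3, 20.5 and 21.2% in replicate 2. The 3 just outside it had 18.6, 19.0 and 19.3% in replicate 1 and 19.83, 19.83 and 19.98% in replicate 2. The class of 20 to 30% held 15 and 12 of the high-mitochondrial barcodes, and the class of 10 to 20% below the threshold held 38 and 154 barcodes.

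As selected, the barcodes were poor in nuclear-encoded RNA but not in mitochondrial RNA. They held a median of 834 and 701.5 non-mitochondrial UMIs in replicates 1 and 2, against 19851 and 14552.5 in the 5466 and 7442 barcodes with under 10% mitochondrial UMIs. The median number of mitochondrial UMIs was 1303 and 1438 in the high-mitochondrial barcodes and 762 and 771 in the others. The selection shapes this contrast. A barcode with few non-mitochondrial UMIs passes the floor on total UMIs only through its mitochondrial UMIs, and barcodes poor in both are left out. The contrast is therefore a description of the selected barcodes and was not tested. The high-mitochondrial barcodes showed a median of 521 and 455 genes, against 4527 and 3936. The make-up of the mitochondrial UMIs differed by at most a few percentage points a gene from that of barcodes with at least 10000 UMIs and under 10% mitochondrial UMIs (deep cells). *mt-Co3*, the most abundant mt- gene of deep cells, made up 21.3 and 20.9% of mitochondrial UMIs in the high-mitochondrial barcodes and 21.01 and 20.8% in deep cells. *mt-Atp6*, an ATP synthase subunit, made up 21.4 and 24.0%, against 18.6 and 19.96%. *mt-Co1*, a cytochrome c oxidase subunit, made up 14.2 and 9.87%, against 16.5 and 13.4%. In relative terms a scarce gene could differ more, as *mt-Nd6* did with 0.169 and 0.133%, against 0.0780 and 0.0652%. No barcode sequence was shared between the high-mitochondrial barcodes of the libraries, and 15 were shared among all barcodes past the floors.

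**Figure D1:**
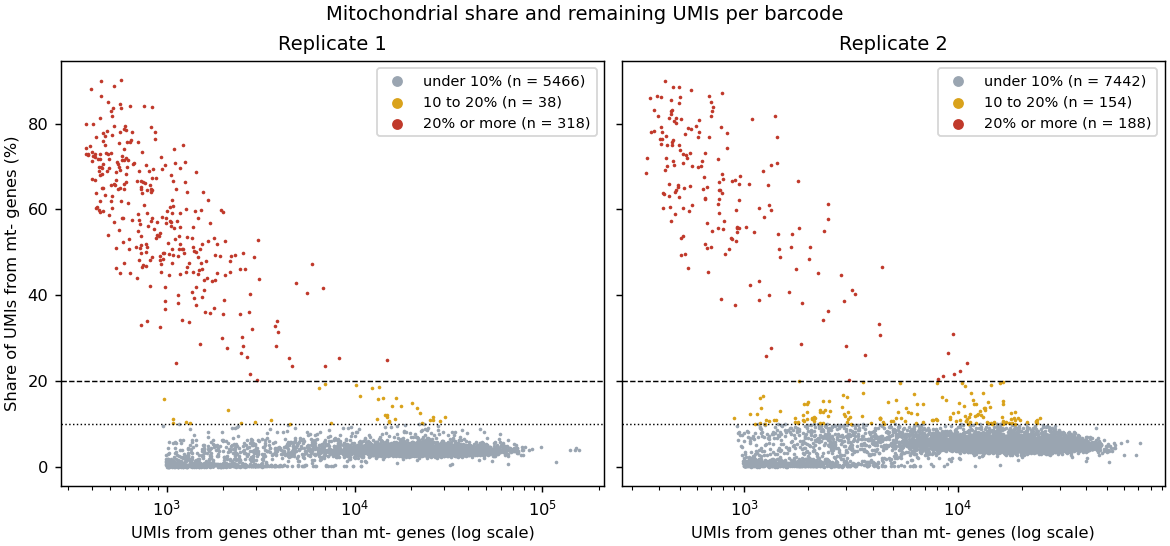
Each point is 1 barcode with at least 1000 UMIs and 300 genes, in replicates 1 and 2. The x axis gives its UMIs from genes other than mt- genes (log scale) and the y axis the share of its UMIs from mt- genes in percent, with dashed and dotted lines at 20 and 10%. The 318 and 188 high-mitochondrial barcodes (red) sit mostly at the left, with medians of 834 and 701.5 non-mitochondrial UMIs.

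To ask which nuclear-encoded RNAs were kept or lost, mt- genes were removed and UMIs were summed per library and class, since cells are not replicates. Each high-mitochondrial barcode was paired with 1 barcode of the same library with under 10% mitochondrial UMIs and a non-mitochondrial UMI count at most 10% away (matched controls). Such a control existed for 145 of 318 and 67 of 188 barcodes, because the UMI floor of 1000 leaves few controls with so few non-mitochondrial UMIs. The matched controls were unlike typical cells of these libraries. Their median mitochondrial share was 0.564 and 2.98%, against 3.69 and 5.01% in the 4394 and 5661 barcodes with at least 10000 UMIs and under 10% mitochondrial UMIs (deep controls). Their median *Malat1* share per barcode was 0.0948 and 0.103% of non-mitochondrial UMIs, against 1.41 and 1.15% in deep controls. List counts are therefore given against the matched controls, against matched controls of 2 to 10% mitochondrial UMIs, and for all 506 barcodes against the deep controls, whose depth differs, and single genes against the matched controls first. Levels are shares of non-mitochondrial UMIs, and fold changes compare such shares, so that kept, lost, higher and lower refer to shares. Deep controls held a median of 22646 and 17170 non-mitochondrial UMIs, far more than the high-mitochondrial barcodes. A higher share than in deep controls is thus no statement about the number of molecules per barcode. Levels are those of the 212 barcodes with a control unless stated otherwise, so that a level beside a fold change against the deep controls is of a smaller set. These comparisons share high-mitochondrial barcodes, so that they are set side by side and do not support each other. The 173 and 121 barcodes without a control were not in the matched tests. In those, *Malat1* took 15.2 and 15.7% of summed non-mitochondrial UMIs, against 17.6 and 11.997% in the barcodes with a control.

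Many genes differed in both directions. Against the matched controls, 898 of 3872 genes tested were higher (23.2%) and 532 lower (13.7%) in the high-mitochondrial barcodes by the quasi-likelihood F test of edgeR (p-values adjusted after Benjamini and Hochberg, under 0.05). Against controls of 2 to 10% mitochondrial UMIs, 569 of 3606 genes were higher (15.8%) and 305 lower (8.46%). Against the deep controls, 955 of 14054 genes were higher (6.8%) and 1480 lower (10.5%). A gene could pass the filter on low counts through 1 class alone, in which case it had to be low in the other. Against matched controls, 696 of the 3872 genes had passed through the high-mitochondrial sums alone, with 533 of the 898 higher calls among them, and 171 through the controls alone, with 63 of the 532 lower calls. Shares of all genes are therefore not like for like with lists that hold no such genes. No difference between a list and all genes was tested. The median log2 fold change over all genes was 0.02, 0.01 and -0.26 in these comparisons, and list medians are to be read against these values. All p-values rest on the spread between 2 libraries, a design in which an exact permutation test of a single gene could not reach 0.05.

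Nuclear-retained RNAs made up a far larger part of the nuclear-encoded RNA in these barcodes. *Malat1*, a nuclear speckle RNA at chromosome 19, 5795690 to 5802672 on the minus strand (GRCm38), was at 175668 CPM (UMIs of the gene scaled to 1000000 non-mitochondrial UMIs) in replicate 1 and 119972 CPM in replicate 2. It was at 6278 and 7221 CPM in the matched controls, and at 15584 and 12639 CPM in the deep controls. The groups did not overlap, and free RNA, the summed content of barcodes with 1 to 100 UMIs, held 22629 and 9789 CPM. The log2 fold change of *Malat1* was 4.44 ± 0.35 (SE, adjusted p = 2.57e-05, edgeR), and 3.14 against the deep controls (adjusted p = 0.00748). *Malat1* alone thus took 17.6 and 11.997% of the non-mitochondrial UMIs of the matched high-mitochondrial barcodes.

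*Neat1*, the scaffold of nuclear paraspeckles at chromosome 19, 5824708 to 5845478, was at 6311 and 4184 CPM, against 264 and 306 CPM in matched controls and 718 and 667 CPM in deep controls. Its log2 fold change was 4.19 ± 0.37 (adjusted p = 5.02e-05, edgeR). *Meg3*, an imprinted long noncoding RNA at chromosome 12, 109541001 to 109571726, was at 5700 and 2425 CPM, against 260 and 116 CPM in matched controls and 696 and 237 CPM in deep controls. It was also higher, by 4.37 ± 0.52 on the log2 scale (adjusted p = 0.000361, edgeR). *Kcnq1ot1*, an imprinted antisense RNA inside *Kcnq1* at chromosome 7, 143203458 to 143296549, was at 704 and 833 CPM, against 24.97 and 104 CPM in matched controls. Its log2 fold change was 3.66 ± 0.48 (adjusted p = 0.000712, edgeR). The sources used here do not state whether strand was used in counting, and the division of reads between *Kcnq1* and *Kcnq1ot1* was not checked. In replicate 2, *Xist*, the RNA that coats the inactive X chromosome, was at 3964 CPM in the high-mitochondrial barcodes, 318 CPM in matched controls and 495 CPM in deep controls. *Xist* was not found in either class of the matched sums of replicate 1, and it was not called (adjusted p = 0.080, edgeR). Deep controls of replicate 1 held 0.0358 CPM and free RNA 0 CPM, so that *Xist* was near 0 in all sums of this library. With the library as a block *Xist* was called. This call compares 1 sum with 1 sum, since of the matched sums only those of replicate 2 held *Xist*.

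Of the 12 nuclear-retained RNAs listed, 10 were in the files and 7 passed the filter on low counts. Of these, 5 were higher than in the matched controls (*Malat1*, *Neat1*, *Meg3*, *Kcnq1ot1* and *Mirg*; 71.4%, beside 23.2% of all genes), and *Xist* and *Tug1* were not called. *Mirg* and *Tug1* passed the filter through the high-mitochondrial sums alone, so that the count and median of the 7 are not support for the list. This median log2 fold change was 3.68, against 0.02 over all genes tested, and the single libraries gave medians of 4.44 and 3.63. The list median was 3.30 with controls of 2 to 10% mitochondrial UMIs, with 5 higher (beside 15.8% of all genes), and 2.75 with the deep controls, with 7 of 9 tested higher (beside 6.8%). In each of these comparisons the list median was the value of *Xist*, which had no UMI in the matched sums of replicate 1. The list summed to 18.9 and 13.2% of non-mitochondrial UMIs in the high-mitochondrial barcodes, 0.686 and 0.813% in matched controls, 1.71 and 1.42% in deep controls and 2.44 and 1.11% in free RNA.

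The rise in the share of *Malat1* was a property of most but not all of the barcodes. The median share of *Malat1* per barcode was 14.6% in replicate 1 and 13.9% in replicate 2. The 5th and 95th percentiles were 0.355 and 37.9% in replicate 1 and 0.545 and 31.6% in replicate 2. In replicate 1, 254 of 318 barcodes (79.9%) exceeded the 99th percentile of the deep controls, which was 4.26%. In replicate 2, 159 of 188 (84.6%) exceeded it, at 3.82%. At the other end, 31 barcodes (9.75%) of replicate 1 and 13 (6.91%) of replicate 2 lay at or below the median of the deep controls. The barcodes thus were not of 1 kind with respect to *Malat1*.

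The share of *Malat1* was not proportional to the mitochondrial share. In barcodes with 20 to 30% mitochondrial UMIs (15 and 12 barcodes), *Malat1* took 4.34 and 3.76% of summed non-mitochondrial UMIs. With 30 to 50% (88 and 27 barcodes) it took 22.04 and 18.5%. With 50 to 70% (141 and 78 barcodes) it took 18.5 and 15.9%, and with 70% or more (74 and 71 barcodes) 12.9 and 16.1%. The barcodes of 10 to 20% were close to the other cells, with 2.19 and 1.56% against 1.54 and 1.26% under 10%. The step thus lay between the classes of 20 to 30% and 30 to 50% in both libraries. These classes are ranges cut from 1 measure, the lowest of them holds fewer than 20 barcodes, and median non-mitochondrial UMIs fell along them from 2768 and 5854 to 537 and 499.

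**Figure D2:**
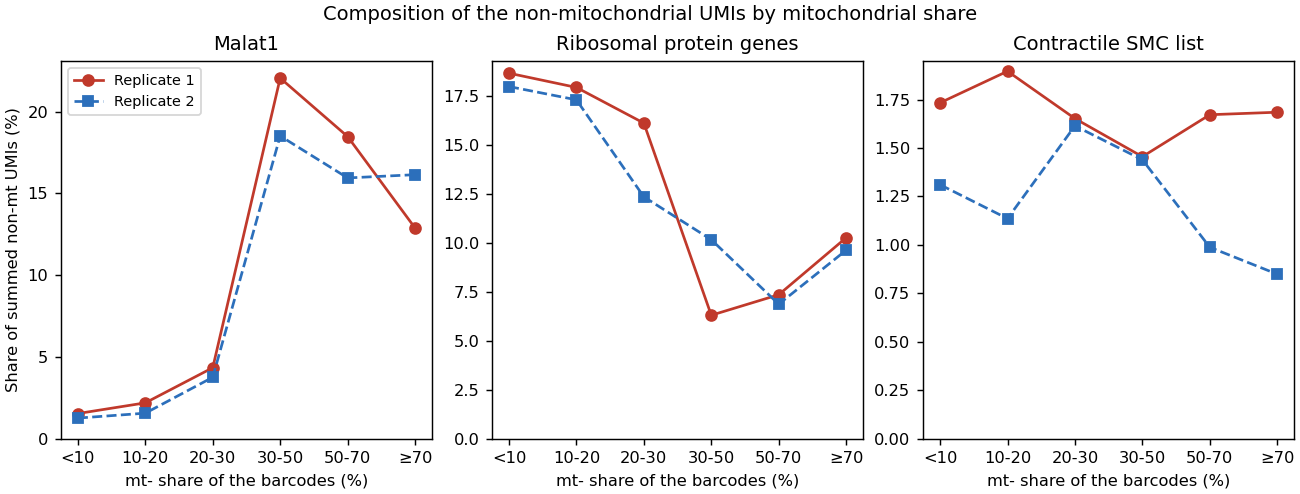
Share of summed non-mitochondrial UMIs (y axes, percent) from *Malat1*, the 76 ribosomal protein genes and the contractile list, in barcodes grouped by mitochondrial share (x axes, percent), for replicate 1 (circles) and replicate 2 (squares). *Malat1* stands at 4.34 and 3.76% in the class of 20 to 30% and at 22.04 and 18.5% in the class of 30 to 50%, while ribosomal protein genes go from 18.7 and 18.0% under 10% to 6.30 and 10.2% at 30 to 50%.

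mRNAs of ribosomal proteins, the protein components of the cytosolic ribosome, were lower in the summed counts. All 76 genes of the list were tested, and 76 were lower than in matched controls (beside 13.7% of all genes), with log2 fold changes of -1.70 to -0.99 and a median of -1.42. With controls of 2 to 10% mitochondrial UMIs 75 were lower (beside 8.46% of all genes, median -1.30), and with the deep controls 76 (beside 10.5%, median -1.25). The list summed to 8.56 and 10.1% of non-mitochondrial UMIs, against 26.3 and 22.9% in matched controls, 18.5 and 17.8% in deep controls and 18.5 and 18.6% in free RNA. Since *Malat1* takes up a large part of the sums, the shares were also taken without it. They were then 10.4 and 11.4%, against 26.5 and 23.0% in matched controls and 18.8 and 18.1% in deep controls, so that the order of the classes was the same without *Malat1*. As an example, *Rplp0*, the central protein of the ribosomal stalk, was at 2030 and 2755 CPM, against 7173 and 6833 CPM in matched controls and 4821 and 4903 CPM in deep controls. It fell by 1.59 ± 0.30 on the log2 scale (adjusted p = 0.003, edgeR). Single barcodes varied in the share of the list. Its median was 5.09 and 6.32%, against 18.1 and 17.3% in deep controls. The 5th and 95th percentiles were 1.41 and 26.1% in replicate 1 and 1.94 and 25.5% in replicate 2. The 95th percentiles of deep controls were 23.3 and 23.7%. With the study's UMI floor of 3000, which left few pairs, 0 genes of any kind were called lower.

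Other abundant cytosolic mRNAs were mostly called lower, and none was called higher. Of 24 such genes (thymosins, ferritin chains, glycolytic enzymes, actins and translation factors), 18 were lower than in matched controls (75%, beside 13.7% of all genes), and the median log2 fold change was -1.07. There were 14 lower with controls of 2 to 10% mitochondrial UMIs (beside 8.46% of all genes, median -1.02) and 20 lower with the deep controls (beside 10.5%, median -1.13). *Ftl1*, the ferritin light chain, was at 2816 and 5990 CPM, against 9127 and 17456 CPM in matched controls, and fell by 1.63 ± 0.37 on the log2 scale (adjusted p = 0.007, edgeR). *Fth1*, the ferritin heavy chain, fell by 1.65 ± 0.36 and *Eef1b2*, a translation elongation factor subunit, by 1.56 ± 0.30. *Actb* fell by 0.85 ± 0.28 (adjusted p = 0.032), a call that was lost with the library as a block (adjusted p = 0.071, edgeR).

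Nuclear-encoded subunits of the respiratory chain were lower or not called. Of the 92 genes of this list 77 were tested, and 45 were lower than in matched controls (58.4%, beside 13.7% of all genes), with a median log2 fold change of -1.07. With controls of 2 to 10% mitochondrial UMIs 33 of 76 were lower (beside 8.46% of all genes), and with the deep controls 62 of 89 (beside 10.5%, median -1.13). *Cox4i1*, a nuclear-encoded subunit of cytochrome c oxidase, was at 497 and 457 CPM, against 1141 and 1080 CPM in matched controls and 948 and 909 CPM in deep controls. It fell by 1.25 ± 0.32 on the log2 scale (adjusted p = 0.011, edgeR). The largest falls of the list were those of *Sdhd* (-1.98 ± 0.62, with -3.03 and -1.27 in the single libraries, and not called with the other controls), *Ndufb5* (-1.75 ± 0.38) and *Uqcr11* (-1.58 ± 0.36).

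**Figure D3:**
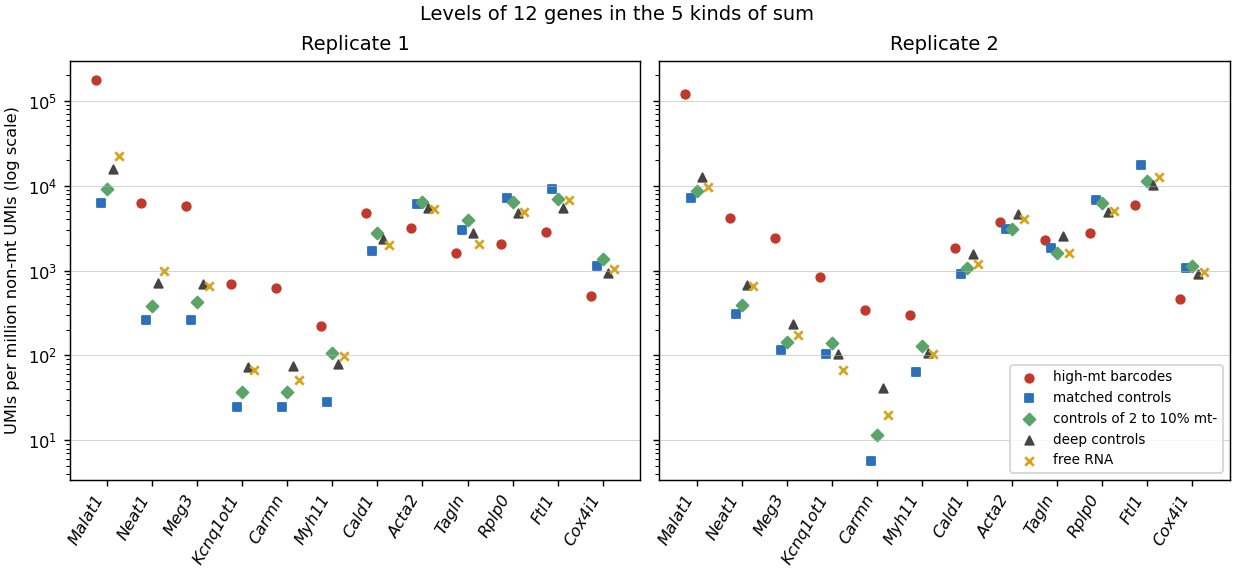
Level of 12 genes (y axis, CPM of non-mitochondrial UMIs, log scale) in replicates 1 and 2, in the high-mitochondrial barcodes with a control (red circles), matched controls (blue squares), matched controls of 2 to 10% mitochondrial UMIs (green diamonds), deep controls (dark triangles) and free RNA (crosses). *Malat1* stands at 175668 and 119972 in the high-mitochondrial barcodes, above all other sums, while *Rplp0*, *Ftl1* and *Cox4i1* stand below the other sums of the same library.

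The contractile genes divided. In the barcodes with a control, the list of 16 genes summed to 1.56 and 1.36% of non-mitochondrial UMIs, against 1.65 and 0.986% in matched controls and 1.74 and 1.33% in deep controls. In the barcodes without a control it summed to 1.65 and 1.02%. By mitochondrial share it stood at 1.67 and 0.988% in the class of 50 to 70% and at 1.68 and 0.849% from 70%, against 1.73 and 1.31% under 10%. These differences were not tested. Free RNA held 1.60 and 1.10%, so that the sum alone does not separate RNA of the barcode from free RNA, and the contribution of free RNA was not tested. Of 14 genes tested, 5 were higher than in matched controls (35.7%, beside 23.2% of all genes), and the median log2 fold change was 0.70. A second set of controls matched on depth gave a median of 0.0207. With controls of 2 to 10% mitochondrial UMIs 2 of 14 were higher, near the 15.8% of all genes, and the median was 0.43. With the deep controls 2 of 16 were higher, 3 lower (beside 6.8 and 10.5% of all genes), and the median was 0.04.

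*Myh11*, the smooth muscle myosin heavy chain at chromosome 16, 14194535 to 14291372 on the minus strand, was at 225 and 301 CPM in the high-mitochondrial barcodes. It was at 28.5 and 63.5 CPM in matched controls, 79.3 and 107 CPM in deep controls and 99.7 and 104 CPM in free RNA. Both libraries of the high-mitochondrial barcodes were above every other sum. The log2 fold change was 2.54 ± 0.44 (adjusted p = 0.002, edgeR). It was 1.19 with controls of 2 to 10% mitochondrial UMIs (adjusted p = 0.032) and 1.21 with the deep controls (adjusted p = 0.017, edgeR), so that the size of the difference depended on the controls.

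*Acta2* (smooth muscle α-actin) and *Tagln* (SM22α), both short abundant cytoskeletal mRNAs, did not follow *Myh11*. *Acta2*, at chromosome 19, 34241090 to 34255590, was at 3141 and 3762 CPM, against 6106 and 3090 CPM in matched controls and 5435 and 4618 CPM in deep controls. The high-mitochondrial barcodes were below the matched controls in replicate 1 and above them in replicate 2. The log2 fold change was -0.48 ± 0.35 (adjusted p = 0.298, edgeR), and against the deep controls -0.85 (adjusted p = 0.030). *Tagln*, at chromosome 9, 45929619 to 45936058, was at 1619 and 2292 CPM, against 3046 and 1831 CPM in matched controls and 2798 and 2564 CPM in deep controls. Its log2 fold change was -0.38 ± 0.34 (adjusted p = 0.386, edgeR), and against the deep controls -0.84 (adjusted p = 0.028). Both genes were thus called lower against deep cells and were not called against matched controls. The sign also changed with the selection of barcodes. With the study's UMI floor of 3000, *Acta2* was at 0.95 and *Tagln* at 0.92 against matched controls, and neither was called. Among barcodes of 20 to 50% mitochondrial UMIs they were at 0.12 and 0.16. Cell Ranger discards reads that map to more than 1 gene, so that levels of close paralogs such as *Acta2* and *Actg2* are uncertain.

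The other contractile genes called higher than in matched controls encode large cytoskeletal or actin-binding proteins. *Cald1* (caldesmon) was at 4746 and 1829 CPM, against 1687 and 918 CPM in matched controls, with a log2 fold change of 1.31 ± 0.45 (adjusted p = 0.038, edgeR). *Vcl* (vinculin) was at 1083 and 567 CPM, against 243 and 283 CPM, with 1.65 ± 0.39 (adjusted p = 0.008, edgeR). *Smtn* (smoothelin) was at 157 and 156 CPM, against 60.6 and 11.6 CPM, and was higher by 1.91 ± 0.54 on the log2 scale (1.35 in replicate 1 and 3.46 in replicate 2, where the matched controls held 2 UMIs). *Flna* (filamin A) was higher by 1.07 ± 0.32. Of these 4 genes, *Smtn* was also higher against the deep controls (0.91, adjusted p = 0.031, edgeR), and *Cald1*, *Vcl* and *Flna* were not called there. *Vcl* was higher with controls of 2 to 10% mitochondrial UMIs (1.24, adjusted p = 0.047, edgeR), and *Smtn*, *Cald1* and *Flna* were not called (adjusted p = 0.084, 0.298 and 0.179).

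Of 12 markers of modulated VSMCs 9 were tested, with 1 higher (11.1%, beside 23.2% of all genes) and 2 lower (22.2%, beside 13.7%) than in matched controls and a median log2 fold change of -0.57. *S100a4*, a calcium-binding protein, was at 1390 and 1800 CPM, against 2807 and 3599 CPM in matched controls and 2666 and 3531 CPM in deep controls. It fell by 1.04 ± 0.30 on the log2 scale (adjusted p = 0.018, edgeR). *Ly6a* (Sca-1), a surface protein of progenitor-like cells, was at 67.9 and 81.0 CPM, against 300 and 156 CPM in matched controls and 357 and 288 CPM in deep controls. It fell by 1.69 ± 0.43 (adjusted p = 0.011, edgeR). *Thbs1* (thrombospondin 1) was higher by 0.90 ± 0.31 against matched controls (adjusted p = 0.036, edgeR) and at -0.42 against the deep controls (adjusted p = 0.445). *Timp1*, an inhibitor of matrix proteases, had a log2 fold change of -0.72 ± 0.42 (adjusted p = 0.185, and 0.042 with the library as a block, edgeR). Of 11 genes tested with controls of 2 to 10% mitochondrial UMIs, *S100a4* and *Ly6a* were lower (beside 8.46% of all genes), *Thbs1* was not called (adjusted p = 0.235, edgeR) and the median was -0.35. With the deep controls, 5 of the 12 genes were lower (beside 10.5% of all genes) and the median was -1.12.

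Of 13 proliferation genes tested, 1 was higher (*Top2a*) and 1 lower (*Birc5*) than in matched controls, 7.69% each, beside 23.2 and 13.7% of all genes. None of the 13 passed the filter through 1 class alone. *Top2a* (DNA topoisomerase II alpha) was at 279 and 214 CPM, against 60.6 and 57.8 CPM in matched controls, but against 259 and 205 CPM in deep controls. Its log2 fold change was 2.02 ± 0.40 with the former (adjusted p = 0.004, edgeR) and -0.25 with the latter (adjusted p = 0.552). *Birc5* (survivin) was at 60.8 and 63.7 CPM, against 196 and 179 CPM in matched controls and 144 and 143 CPM in deep controls, and fell by 1.62 ± 0.39 (adjusted p = 0.009, edgeR). The other 11 genes were not called, and the list median was -0.35. The same 2 calls were made among 11 genes with controls of 2 to 10% mitochondrial UMIs (beside 15.8% of all genes higher and 8.46% lower), with a median of 0.23. With the deep controls 5 of 14 were lower (beside 10.5% of all genes).

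Calls among genes of secreted matrix proteins depended on the controls. Of 21 genes 20 were tested, 9 were higher than in matched controls (45%, beside 23.2% of all genes), 11 were not called, and the median log2 fold change was 0.86. With controls of 2 to 10% mitochondrial UMIs 4 of 21 were higher, near the 15.8% of all genes (median 0.49), and with the deep controls 5 were lower (beside 10.5%) and the median was -0.43. *Fn1* (fibronectin) was at 3985 and 3576 CPM, against 952 and 1479 CPM in matched controls and 2067 and 1954 CPM in deep controls, with a log2 fold change of 1.63 ± 0.32 (adjusted p = 0.004, edgeR). *Eln* (elastin) was at 872 and 1615 CPM, against 161 and 531 CPM, with 1.85 ± 0.46 (adjusted p = 0.010, and 0.058 with controls of 2 to 10% mitochondrial UMIs, edgeR). *Mgp* (matrix Gla protein), the secreted inhibitor of calcification, had a log2 fold change of -0.92 ± 0.42 (adjusted p = 0.097, edgeR).

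Stress genes did not move as 1 group. Heat shock genes, which encode protein chaperones, were lower or not called. Of 12 genes 10 were tested, 3 were lower than in matched controls (30%, beside 13.7% of all genes), and the median log2 fold change was -0.68. *Hspe1*, a mitochondrial co-chaperonin encoded in the nucleus, was at 264 and 376 CPM, against 638 and 797 CPM in matched controls, and fell by 1.20 ± 0.33 (adjusted p = 0.015, edgeR). *Cryab* (αB-crystallin) was at 1240 and 1082 CPM, against 2793 and 2160 CPM, and fell by 1.13 ± 0.32 (adjusted p = 0.016, edgeR). *Hsp90ab1*, the constitutive cytosolic HSP90, fell by 0.84 ± 0.30 (adjusted p = 0.044, edgeR). The same 3 of 9 genes were lower with controls of 2 to 10% mitochondrial UMIs (beside 8.46% of all genes, median -0.52). With the deep controls 6 of 12 genes were lower (beside 10.5% of all genes) and the median was -1.04.

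Calls among immediate early genes, which are transcribed within minutes of a stimulus, depended on the controls. None of these genes passed the filter on low counts through 1 class alone. Of 16 genes 15 were tested, 3 were higher than in matched controls (20%, beside 23.2% of all genes), and the median log2 fold change was 0.62. *Btg2*, an antiproliferative early gene, was at 304 and 787 CPM, against 175 and 133 CPM in matched controls and 402 and 263 CPM in deep controls. Its log2 fold change was 1.72 ± 0.43 (adjusted p = 0.010, edgeR). *Dusp1*, a MAP kinase phosphatase, was higher by 1.32 ± 0.42 and *Klf6*, a zinc finger transcription factor, by 1.22 ± 0.39 (both adjusted p = 0.028, edgeR). *Egr1*, another early transcription factor, was at 372 and 799 CPM, against 414 and 214 CPM in matched controls (0.79 ± 0.42, adjusted p = 0.146, edgeR). The libraries differed in these genes. The list summed to 0.267 and 0.516% in the high-mitochondrial barcodes, against 0.237 and 0.218% in matched controls and 0.424 and 0.309% in deep controls. Both libraries thus lay above their matched controls, while replicate 1 lay below and replicate 2 above its deep cells. Only *Btg2* of 15 genes was higher with controls of 2 to 10% mitochondrial UMIs (beside 15.8% of all genes), the median was 0.38, and *Dusp1* and *Klf6* were not called (adjusted p = 0.061 and 0.058, edgeR). With the deep controls the median was -0.24, and none of the 3 genes named as higher was called (adjusted p = 0.562, 0.903 and 0.477).

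The integrated stress response, which is led by ATF4, had 3 higher and 1 lower of 10 genes tested (30 and 10%, beside 23.2 and 13.7% of all genes). The median was -0.15, and none of the 10 passed the filter through 1 class alone. *Ppp1r15a* (GADD34), a phosphatase subunit that ends this response, was at 222 and 214 CPM, against 96.3 and 46.2 CPM in matched controls (1.503 ± 0.42, adjusted p = 0.017, edgeR). *Slc3a2*, an amino acid transporter heavy chain, was higher by 1.48 ± 0.41 (2.11 and 0.78 in the single libraries) and *Nupr1*, a stress-induced nuclear protein, by 0.95 ± 0.34. *Atf5*, a transcription factor of the same response, was at 139 and 104 CPM, against 178 and 375 CPM in matched controls and 125 and 119 CPM in deep controls. It fell by 1.14 ± 0.41 against the former (adjusted p = 0.043, edgeR), with single-library values of -0.35 and -1.82, and was at -0.21 against the latter (adjusted p = 0.617). Of 12 p53 and cell death genes 8 were tested, 3 of which had passed the filter through the high-mitochondrial sums alone, among them *Trp53inp1* and *Fas* with 1 to 4 UMIs a library in matched controls. No count or median over the 8 is given for this reason. *Mdm2*, the p53 ubiquitin ligase, was at 157 and 145 CPM, against 64.2 and 46.2 CPM in matched controls (1.38 ± 0.43, adjusted p = 0.024, edgeR). *Bax*, a pro-apoptotic pore protein, was at 200 and 376 CPM, against 442 and 578 CPM (-0.88 ± 0.35, adjusted p = 0.064, and 0.023 with the library as a block, edgeR). *Ccng1* (cyclin G1), a p53 target, fell by 1.02 ± 0.38 (adjusted p = 0.048, edgeR). Of 10 integrated stress response genes, 1 was higher with controls of 2 to 10% mitochondrial UMIs (*Slc3a2*, beside 15.8% of all genes), with a median of -0.12, and *Ppp1r15a*, *Nupr1*, *Atf5* and *Mdm2* were not called (adjusted p = 0.067, 0.156, 0.078 and 0.066, edgeR), while *Ccng1* was lower (adjusted p = 0.034). With the deep controls, 1 of 18 integrated stress response genes was lower, and 1 of 12 p53 genes was higher and 4 were lower, beside 6.8% of all genes higher and 10.5% lower.

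The calls among chaperones of the endoplasmic reticulum depended on the controls. Against matched controls, 1 of 12 genes tested was lower (*Manf*, a secreted ER stress protein, -1.002 ± 0.33, adjusted p = 0.032, edgeR), or 8.33% beside 13.7% of all genes, and the median was -0.12. Against controls of 2 to 10% mitochondrial UMIs, 1 of 11 was lower (*Calr*, an ER calcium-binding chaperone, beside 8.46% of all genes), and *Manf* was not called (adjusted p = 0.061, edgeR). Against the deep controls, 12 of 14 were lower, beside 10.5% of all genes, and the median was -1.33. *Hspa5* (BiP), the main ER chaperone, was at 725 and 1319 CPM in the high-mitochondrial barcodes, 378 and 965 CPM in matched controls and 1584 and 1333 CPM in deep controls. The matched controls of replicate 1 were thus themselves low in this gene.

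**Figure D4:**
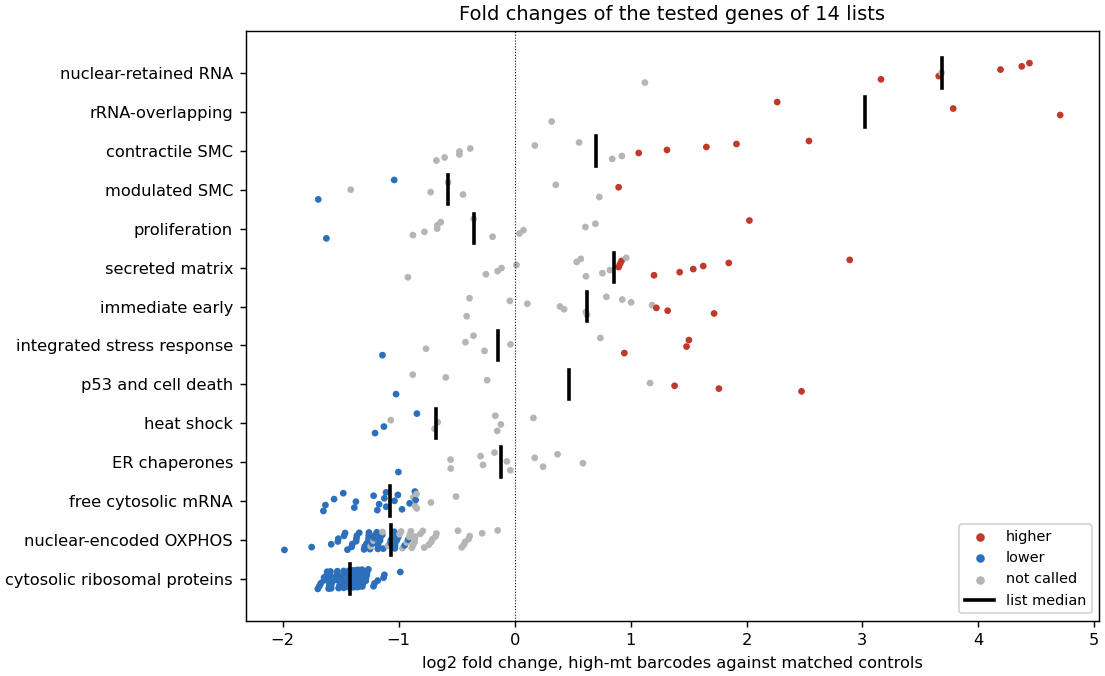
log2 fold change between high-mitochondrial barcodes and matched controls (x axis) for each tested gene of 14 lists (rows), with red for genes called higher, blue for genes called lower and grey for genes not called, and a black bar for the list median. Nuclear-retained RNAs stand at a median of 3.68 (the value of *Xist*) and ribosomal protein genes at -1.42, with the stress lists between them.

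Genes to which fragments of ribosomal RNA are commonly assigned were also higher, and these values are uncertain. *Gm42418* (chromosome 17, 39846958 to 39848788), *AY036118* (39847113 to 39848035) and *Gm26917* (39843013 to 39846341) lie at the same locus, and the first pair overlaps on opposite strands. *Gm42418* was at 23732 and 13964 CPM, against 5290 and 2339 CPM in matched controls and 1193 and 910 CPM in deep controls, with a log2 fold change of 2.26 ± 0.43 (adjusted p = 0.003, edgeR). The level in free RNA was higher still, at 39293 and 31288 CPM, and the part of free RNA in this result was not tested. Of the 4 genes of the list (with *Lars2*, the mitochondrial leucyl-tRNA synthetase) 3 were higher than in matched controls (beside 23.2% of all genes), 3 with controls of 2 to 10% mitochondrial UMIs (beside 15.8%) and 4 with the deep controls (beside 6.8%). *Gm26917*, with 6 and 2 UMIs in matched controls, passed the filter through the high-mitochondrial sums alone, so that the first count is not support for the list. *AY036118* was not called with the former (0.32 ± 0.35, adjusted p = 0.491, edgeR). Free RNA had a mitochondrial share of 11.2 and 11.4%, between the deep controls (3.799 and 5.14% of summed UMIs) and the high-mitochondrial barcodes (55.3 and 57.7%).

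Fold changes differed by a feature that the rule did not use, the length of the transcript, without a full separation of genes kept and lost. Genes were divided into 5 groups of nearly equal number by the length of their longest annotated transcript (GENCODE M21). Of the 775 genes of 383 to 1787 bases, 310 were lower (40%) and 11 higher (1.42%), with a median log2 fold change of -0.98. Of the 774 genes of 5930 bases and more, 433 were higher (55.9%) and 8 lower (1.03%), with a median of 1.38. The groups between them had medians of -0.49, 0.00 and 0.79, so that the fold change rose with length at each step. With the deep controls the medians were -1.15, -0.86, -0.50, 0.10 and 0.65 in the same order. The library values for the shortest and longest groups were -1.15 and 1.59 in replicate 1 and -0.69 and 1.16 in replicate 2. Of the longest genes, 305 had passed the filter through the high-mitochondrial sums alone, with 247 of the higher calls, and of the shortest 78 through the controls alone. Among genes with a mean of at least 100 CPM over the 4 sums, a limit chosen after the data were seen, the medians were -1.05, -0.70, -0.17, 0.69 and 1.24 from the shortest to the longest group. Of the 279 longest genes above this limit, 164 were higher and 6 lower, and of the 442 shortest 6 were higher and 248 lower. Lengths are those of annotated transcripts and not of the molecules captured, and length was not separated from abundance or function. Among the genes named above, *Myh11* (6549 bases), *Vcl* (5267 bases) and *Fn1* (8315 bases) were higher than in matched controls. *Tagln* (1595 bases) and *Acta2* (2035 bases) were not, and *S100a4* (498 bases) was lower. Other named genes went against this order. *Gm42418* (1831 bases) and *Dusp1* (2313 bases) were higher, and *Ccng1* (3512 bases), *Birc5* (3334 bases) and *Ndufb5* (3127 bases) were lower. *Carmn* (1778 bases) and *Gm26523* (1658 bases), named below among the largest rises, lie in the shortest group.

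**Figure D5:**
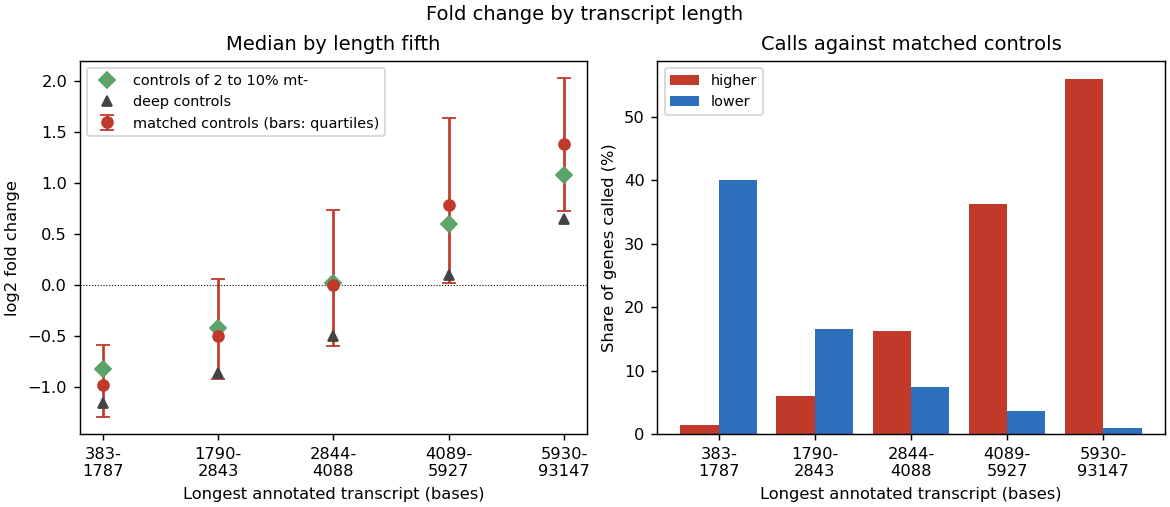
Left, median log2 fold change (y axis) of high-mitochondrial barcodes against matched controls (red, bars are quartiles over genes), against controls of 2 to 10% mitochondrial UMIs (green) and against deep controls (dark), for 5 groups of genes by longest annotated transcript in bases (x axis). Right, percentage of genes of each group called higher (red) or lower (blue) against matched controls, with genes that passed the filter on low counts through 1 class alone included. The median goes from -0.98 in the shortest to 1.38 in the longest group.

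Noncoding and long transcripts were among the 10 largest rises by the naming rule. Besides *Malat1*, *Neat1*, *Meg3* and *Gm26917*, these included *Carmn*, *Leng8*, *Gm26523*, *Ccnt2* and *Myom1*. The matched controls held only 0 to 7 UMIs of each of these last 5 genes per library, so that their levels are given beside the deep controls. For these, the levels are of all 506 barcodes, as is the fold change. *Carmn*, a long noncoding RNA of smooth muscle, was at 548 and 339 CPM in the high-mitochondrial barcodes and at 75.6 and 40.9 CPM in deep controls, with a log2 fold change of 2.68 (adjusted p = 0.014, edgeR). *Ccnt2*, a cyclin of the elongation factor P-TEFb, was at 179 and 203 CPM, against 21.8 and 27.3 CPM in deep controls (2.68, adjusted p = 0.007, edgeR). *Myom1* (myomesin 1), a large sarcomere protein, was at 281 and 136 CPM, against 23.0 and 22.7 CPM in deep controls.

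The 10 largest falls had longest annotated transcripts of 661 to 5091 bases and held an endothelial gene. Some differed in size between the libraries. All but *Serpinb1a* rest on few UMIs of the high-mitochondrial barcodes (0 to 13 a library for *Ctla2a*, *Cldn5*, *Gm1673*, *Cdca3*, *Naa38*, *Mrpl18*, *Usp50*, *Atoh8* and *Smim1*). Such genes could pass the filter through the controls, where they were high. *Cdca3*, a cell cycle regulator, was at 17.9 and 17.4 CPM, against 103 and 92.4 CPM in matched controls and 75.5 and 65.9 CPM in deep controls (-2.47 ± 0.51, adjusted p = 0.005, edgeR). *Serpinb1a*, a protease inhibitor, was at 92.9 and 133 CPM, against 385 and 526 CPM in matched controls and 434 and 454 CPM in deep controls (-2.05 ± 0.36, adjusted p = 0.002, edgeR). *Mrpl18*, a mitochondrial ribosomal protein encoded in the nucleus, was at 39.3 and 69.4 CPM, against 218 and 231 CPM in matched controls (-2.12 ± 0.41, adjusted p = 0.004, edgeR). *Ctla2a* (-3.38 ± 0.86) was at 28.6 and 23.1 CPM, against 46.4 and 549 CPM in matched controls and 66.1 and 70.1 CPM in deep controls. The matched controls of replicate 2, and those of 2 to 10% mitochondrial UMIs there at 575 CPM, thus stood far above the other sums. *Cldn5*, a tight junction protein of endothelium (-3.06 ± 0.67), was at 21.4 CPM in replicate 1 and had no UMI in replicate 2, against 92.7 and 133 CPM in matched controls and 6.55 and 4.53 CPM in deep controls. The 7 endothelial genes summed to 129 and 11.6 CPM in the high-mitochondrial barcodes, 171 and 572 CPM in matched controls and 53.7 and 44.5 CPM in deep controls. *Egfl7* was the most abundant of them, *Kdr* had no UMI in the high-mitochondrial barcodes with a control, and 2 of the 7 genes were tested. The part of endothelial barcodes among the controls in these calls was not tested. *Gm1673*, *Naa38*, *Usp50*, *Atoh8* and *Smim1* completed the 10, with log2 fold changes of -2.48 to -2.03. The value of *Atoh8* (-2.05) differed between the libraries, at -4.14 in replicate 1 (1 UMI against 26) and -0.66 in replicate 2 (8 UMIs against 13).

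Macrophage, Schwann cell and erythroid markers were near 0 in the high-mitochondrial barcodes, while endothelial genes differed between the libraries. *Pecam1*, the endothelial adhesion molecule, was at 32.2 CPM in replicate 1 (9 UMIs in 2 of 145 barcodes with a control), against 3.57 CPM in matched controls and 9.70 CPM in deep controls, and had no UMI in replicate 2, against 98.2 and 7.66 CPM. It had a UMI in 4 of 318 barcodes (1.26%) of replicate 1 and in 0 of 188 of replicate 2. By a limit of 3 counts the latter allows up to 1.60% of barcodes with a UMI, which at a median of 701.5 non-mitochondrial UMIs does not limit the share of cells that express the gene. *Egfl7*, a secreted endothelial protein, was at 57.2 and 11.6 CPM, against 39.2 and 162 CPM in matched controls and 22.8 and 16.7 CPM in deep controls. Of 9 macrophage genes 8 had no UMI in the barcodes with a control, and the list summed to 0 and 17.4 CPM. Of 6 Schwann cell genes 4 had none, with sums of 7.15 and 23.1 CPM. Of 5 erythroid genes 4 had none, with sums of 3.57 and 0 CPM. None of these 3 lists had a gene past the filter. Doublets were not called or removed.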

How the data were processed

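The 2 libraries of wildtype VSMCs, biological replicates 1 and 2, were used, each with 1 matrix of UMI counts. The authors aligned the reads with Cell Ranger (version 3.0.2 per the labels, and 3.0.2 and 3.1.0 for replicates 1 and 2 per the file headers; build mm10) and deposited whole-number UMI counts for 31053 genes and all barcodes, without normalization or cell selection. The counts summed to 127949633 and 132561822 UMIs. The annotation was GENCODE M21 (31011 genes matched). Levels are CPM of summed counts without the 13 mt- genes, which were not tested since they chose the barcodes.

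Matching took the nearest non-mitochondrial UMI count in the same library, within 10% and without replacement. Free RNA was the sum over barcodes of 1 to 100 UMIs. Sums per library and class (4 per comparison) were tested with edgeR 4.0.16 in R 4.3.3 (quasi-likelihood F test, TMM, filterByExpr, Benjamini-Hochberg adjustment over all genes tested, threshold 0.05). The study states no such test. Alternatives were a replicate block, no TMM, upper-quartile scaling, DESeq2 1.42.0, no filter, other floors and other controls, and leaving out each library. Tables and figures were made with Python 3.11.15. On simulated counts of the matched comparison (3707 genes), 77.2% of changes of 2 and 21.4% of changes of 1 on the log2 scale were recovered, with 1.08% false among the calls. The simulated sums were independent, with a fixed dispersion of 0.05 and few changed genes, balanced in direction. In the data far more genes were called, and sums of a library shared a culture. The 1.08% is therefore not the false share of the real calls.

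Members and controls of a library were drawn from 1 culture, which pairs their sums by replicate number. Their deviations from the class means correlated at 0.241 over 3872 genes. The members and gene lists were chosen with earlier results of these data known. Named are, in each list, the 4 genes of the highest mean CPM and up to 4 called genes of the largest change, of which the text prints a part, 7 genes always reported (*Myh11*, *Acta2*, *Tagln*, *Malat1*, *Neat1*, *Meg3* and *Xist*), and the 10 largest called changes in each direction with a mean of at least 50 CPM. *Flna*, *Tug1* and *Mirg* were named, with *Kdr* and the mt- genes printed, after their values were seen. Some genes that the rule names are not reported here.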

Additional observations from a re-analysis of the deposited data

How the results depend on the processing

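Against matched controls, 1430 genes were called (898 higher, 532 lower). The count was 496 (294 and 202) with DESeq2, 431 (350 and 81) for members of 20 to 50% mitochondrial UMIs, 874 (569 and 305) with controls of 2 to 10%, 2435 (955 and 1480) with deep controls and 2439 (1365 and 1074) with controls of at least 300 genes and no UMI floor, an alternative added after the data were seen that gave every member a control. With the study's UMI floor of 3000, which left 22 and 17 pairs, the count was 4, all higher (*Eln*, *Gm42418*, *Malat1* and *Neat1*), with 0 lower by edgeR, and the members were 1.31% of barcodes on average. With a replicate block 1834 genes were called (1061 and 773), among them 897 of the 898 and 530 of the 532. Without TMM the median over all genes shifted from 0.02 to 0.11 and the higher share of the calls from 62.8 to 70.9%.

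The median of the contractile list was 0.0359 with deep controls and 0.0207 with a second set of controls (0.38 to 0.97 with either library left out). That of nuclear-retained RNAs was 4.84 for members of at least 30% mitochondrial UMIs and 2.75 with deep controls (3.63 to 4.44). That of heat shock genes was -0.0478 with the floor of 3000, -0.97 from 30%, -0.36 for 20 to 50%, -0.52 with controls of 2 to 10%, -1.04 with deep controls, -0.56 with second controls, -0.35 with 6 sums that include the class of 10 to 20%, and -0.85 with no UMI floor for controls (-0.75 to -0.61). That of immediate early genes ranged from -0.12 to 1.20 with either library left out.

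Single log2 fold changes changed sign as follows, and the cause was not tested. With the floor of 3000 these were *Acta2* (0.95), *Tagln* (0.92), *Tubb5* (0.0599), *Hmgb2* (0.0725), *Hsp90aa1* (0.43) and *Ppp1r15a* (-0.15). For 20 to 50% they were *Acta2* (0.12), *Tagln* (0.16), *Hsp90aa1* (0.16), *Cdkn1a* (0.0416) and *Sparc* (0.0589), and from 30% *Hmgb2* (0.12) and *Cdkn1a* (0.0537). With controls of 2 to 10% it was *Hmgb2* (0.23). With deep controls they were *Tpm1* (-0.43), *Thbs1* (-0.42), *Dcn* (-1.09), *Top2a* (-0.25), *Ier2* (-0.70), *Hsp90b1* (-1.28), *Hspa5* (-1.01), *Egfl7* (0.54) and *Cldn5* (0.72). With second controls they were *Tpm1* (-0.19), *AY036118* (-0.00333) and *Egfl7* (0.45), and with no UMI floor for controls *Tpm1* (-0.0264) and *AY036118* (-0.0905). Of the 73 named genes called, 51 were still called the same way with DESeq2, 4 of 67 tested with the floor of 3000, 38 of 70 for 20 to 50% and 52 with deep controls. Single libraries give values without a test.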

Other observations

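Noncoding RNA genes outside the lists were tested as well. Of 17 long intergenic noncoding RNA genes and 3 antisense genes in none of the lists, 9 and 3 passed the filter on low counts through the high-mitochondrial sums alone, so that no count of calls over these genes is given, and single genes are described. *Lncpint*, an RNA induced by p53, was at 182 and 133 CPM in the high-mitochondrial barcodes, 14.3 and 23.1 CPM in matched controls and 28.5 and 16.1 CPM in deep controls. *Dnm3os*, the host of a miRNA cluster antisense to *Dnm3*, was at 218 and 174 CPM, 10.7 and 17.3 CPM, and 31.8 and 33.7 CPM. *Snhg18*, a snoRNA host gene, was at 71.5 and 133 CPM, against 193 and 98.2 CPM in matched controls, and was not called (-0.64 ± 0.45, adjusted p = 0.273, edgeR). *1810058I24Rik*, annotated as noncoding, was lower, at 71.5 and 98.4 CPM against 221 and 208 CPM in matched controls (-1.40 ± 0.38, adjusted p = 0.014, edgeR). These genes were chosen from the noncoding genes after their values were seen.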
